A study of Mus musculus with 12 samples.

Results

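The genes described here are the 4 Id genes (Id1, Id2, Id3, Id4), the inhibitory Smads Smad6 and Smad7, the ligand gene Bmp4, the protease gene Bmp1, and the receptor genes Bmpr1a and Bmpr2. They were taken by symbol from the deposited tables and make up 10 of the 16288 genes listed in at least 1 library. Each symbol matched 1 gene, and all 10 members passed the filter on low counts that kept 12545 genes. The RNA came from C2C12, an immortalized mouse myoblast line, in 12 RNA-seq libraries that form 6 groups of biological duplicates (replicates A and B). Proliferating cells (GM) were kept in medium with 10% fetal bovine serum, and differentiating cells (DM 24h and DM 48h) in medium with 2% horse serum and 2 ug/ml insulin for 24 h or 48 h. At each stage one pair of cultures received the vehicle DMSO and another 50 uM PFI-3, a small-molecule ligand of the bromodomains in Smarca2 and Smarca4, the motor subunits of SWI/SNF remodellers, and in Pbrm1. Exposure began 12 h before harvest (GM) or before the change of medium, and the agent was renewed each 24 h. All groups come from a single cell line, so the duplicates measure culture-to-culture spread within that line, and p-values refer to that spread alone.

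Bone morphogenetic proteins (BMPs) are secreted ligands that bind a pair of type I and type II receptors, which phosphorylate the receptor-activated Smads. These enter the nucleus with Smad4 and switch on target genes, among which the Id genes and the inhibitory Smads are textbook early responders. Id proteins are helix-loop-helix proteins without a DNA-binding region. They capture E proteins and so keep the muscle regulators MyoD and myogenin from binding E-boxes, and BMP treatment is known to block the differentiation of C2C12 cells. Growth factors in serum are also known to raise Id genes, so that Id RNA is not a readout of BMP signalling alone.

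The start-site regions of Id2, Id3 and Smad6 are shown because their RNA was highest in proliferating cells, fell on differentiation, and was higher with PFI-3 than with DMSO at 24 h without overlap between the libraries. RefSeq windows of 300 bases (250 before and 50 after the annotated start, GRCm38.p6) were found for 7 of the 10 members. Bases are counted from the start used in those windows. For Id2 and Id3 it is the outermost 5' end of the gene, whereas for Smad6 it lies 26 bases inside that end. The runs printed begin 250 bases before this start and extend to 30 bases past the gene's outermost end (280 bases for Id2 and Id3, 254 for Smad6), written 5' to 3' on the strand of the gene. They lie at chr12:25096063-25096342 on the minus strand for Id2, chr4:136143572-136143851 on the plus strand for Id3 and chr9:64022056-64022309 on the minus strand for Smad6. Capitals mark matches to 3 letter patterns: GTCTAGAC, the palindromic Smad-binding element; GGCGCC, a GC-rich element bound by BMP-regulated Smads; and CANNTG, the E-box bound by helix-loop-helix proteins.
Id2: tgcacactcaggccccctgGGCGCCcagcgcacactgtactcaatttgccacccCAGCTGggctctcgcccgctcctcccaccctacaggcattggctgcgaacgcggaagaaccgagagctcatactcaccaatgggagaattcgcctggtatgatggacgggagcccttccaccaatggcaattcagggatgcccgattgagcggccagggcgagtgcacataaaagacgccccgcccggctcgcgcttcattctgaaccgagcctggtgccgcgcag
Id3: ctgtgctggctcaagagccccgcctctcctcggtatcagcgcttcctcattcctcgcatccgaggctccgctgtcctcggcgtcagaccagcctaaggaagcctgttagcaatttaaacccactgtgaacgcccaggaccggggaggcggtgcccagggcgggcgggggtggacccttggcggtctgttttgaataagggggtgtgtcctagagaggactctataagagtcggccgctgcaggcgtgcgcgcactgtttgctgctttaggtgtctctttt
Smad6: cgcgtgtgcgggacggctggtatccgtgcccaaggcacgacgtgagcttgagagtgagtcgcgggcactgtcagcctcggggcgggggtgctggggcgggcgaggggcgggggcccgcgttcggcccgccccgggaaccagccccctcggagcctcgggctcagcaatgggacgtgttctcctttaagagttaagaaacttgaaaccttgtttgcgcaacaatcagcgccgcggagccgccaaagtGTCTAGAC
Each pattern reads the same on both strands, and no match overlapped another. In the Smad6 window GTCTAGAC lay across the window's start, from base -4 to base 4 and so within the annotated gene, and an E-box, CATATG, followed at bases 8 to 13, beyond the run shown. GTCTAGAC occurred in 0.213% of the 32851 RefSeq mouse windows of the same length. The Id2 window held GGCGCC at -231 to -226 and the E-box CAGCTG at -196 to -191. The Id3 window held none of the 3 patterns. GGCGCC, present in 11.9% of all windows, was also found for Id4, Bmpr1a and Bmpr2. E-boxes, present in 72.3% of all windows, were also found for Bmp4, which held 3 of them. These matches describe letters in a window and not binding.

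Sequencing depth and the identity of the cells were checked first. Expected counts, the quantifier's estimates of fragments per gene, summed to between 12576374 and 13658352 per library. Duplicates in GM differed more than those after induction: the SD over genes of the log2 ratio of replicate B to A was 0.333 to 0.367 in GM and 0.144 to 0.168 in DM. All 8 markers of skeletal myoblasts and myotubes were present. Their summed CPM (counts scaled to the TMM-adjusted library total) were 972 to 999 in GM DMSO against 557 to 687 in GM PFI-3, 3708 to 3721 against 2205 to 2224 after 24 h, and 9552 to 9555 against 6799 to 6835 after 48 h. PFI-3 lowered 3 of the 8 in GM and 5 of the 8 at each DM stage, and raised none. Over all genes 6.15% were lower in GM, 11.4% at 24 h and 14.0% at 48 h. Of the other cell types considered, the adipocyte markers Adipoq, Fabp4 and Plin1, the osteoblast marker Ibsp, the chondrocyte markers Acan and Matn1, the endothelial markers Pecam1 and Kdr and the macrophage markers Ptprc and Adgre1 were at or under 3 counts in every library. The rest of each list exceeded 3 counts in at least 1 library. The chondrocyte list had a summed CPM of 85.3 to 91.2 in GM DMSO against 57.5 to 81.1 in GM PFI-3. It was 77.0 to 78.3 against 95.6 to 98.6 after 24 h, and 76.9 to 94.3 against 71.0 to 73.5 after 48 h. The macrophage list was at 2.81 to 5.57 CPM in GM DMSO, 5.16 to 9.55 in GM PFI-3 and 1.03 to 3.13 in DM. The 1 marker tested in the chondrocyte list, and in the macrophage list, was not called with PFI-3 at any stage. Of the adipocyte markers that passed the filter, 1 of 3 was higher with PFI-3 at 24 h and 2 of 3 at 48 h, beside 12.2% and 13.4% of all genes. The summed CPM of the adipocyte list was 34.5 to 37.8 against 22.4 at 24 h and 30.2 to 32.2 against 27.2 to 28.1 at 48 h. The osteoblast list had a summed CPM of 1455 to 2168 in GM DMSO against 1077 to 2930 in GM PFI-3, 860 to 884 against 898 to 943 after 24 h, and 431 to 433 against 526 to 540 after 48 h. Most of this was Spp1 (351 to 2800 CPM over the 12 libraries) and Runx2 (57.8 to 155 CPM), while the defining markers Sp7, Bglap and Alpl did not exceed 0.390, 0.244 and 0.627 CPM. Of the 3 osteoblast markers tested, 1 was lower with PFI-3 at 24 h (11.4% of all genes) and none was called at 48 h by edgeR. In RNA from whole cultures, fewer cells expressing a gene and less RNA per cell cannot be told apart.

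Compared per transcript length (FPKM), Id3 was the most abundant member in proliferating cells. The order of the levels in GM DMSO was Id3 (251 and 278 FPKM in replicates A and B), Id1 (131 and 128), Id2 (52.2 and 65.1), Bmp1 (38.6 and 34.7), Bmpr1a (21.2 and 22.6), Smad7 (24.6 and 14.5), Bmpr2 (10.6 and 11.2), Smad6 (8.91 and 9.50), Bmp4 (4.15 and 8.37) and Id4 (0.370 to 0.420). Bmpr1a and Smad7 overlapped, and the other neighbours in that order did not. At 24 h of differentiation with DMSO the order changed: Bmp1 led with 45.6 and 48.9 FPKM, ahead of Bmpr1a (29.9 and 26.8) and Id3 (25.6 and 24.6), while Bmpr2 and Id2 overlapped. With PFI-3 at the same time Id3 was again first, at 83.3 and 78.6 FPKM, and Bmp1 second, at 50.0 and 47.0. At 48 h with DMSO, Id3 (45.2 and 44.4) and Bmp1 (45.0 and 44.1) overlapped, and with PFI-3 Id3 stood above, at 71.5 and 77.1 FPKM.

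**Figure D1:**
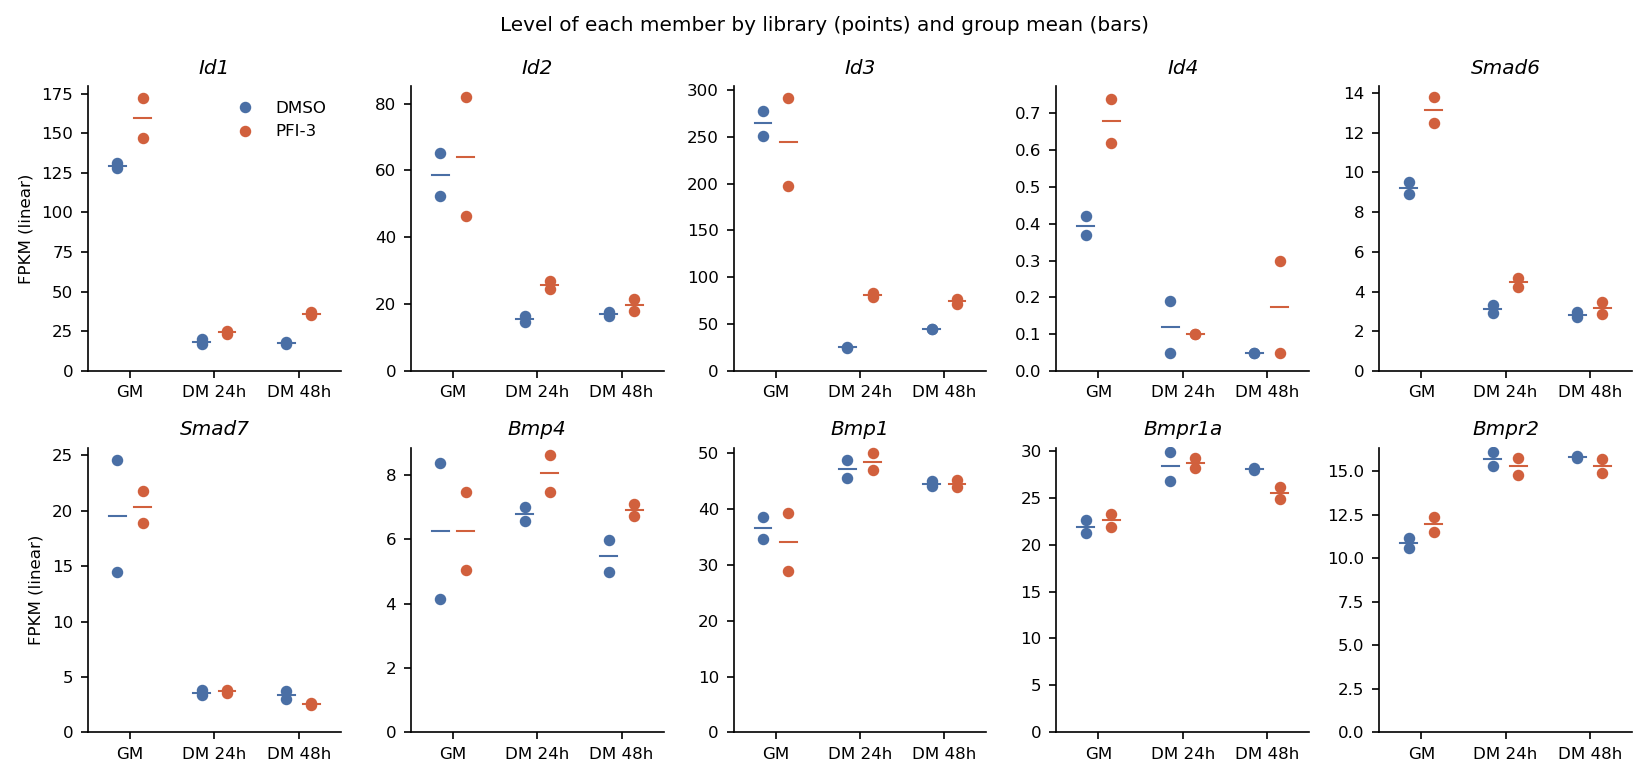
Level of each of the 10 members in FPKM (vertical axis, linear, starting at 0, with its own scale per gene) in GM, DM 24h and DM 48h (horizontal axis); points are libraries, short bars group means, blue DMSO and orange PFI-3. The 3 abundant Id genes and both inhibitory Smads drop from GM to DM, and Id3 with PFI-3 at DM 24h (78.6 and 83.3 FPKM) lies above Id3 with DMSO (24.6 and 25.6).

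The summed level of the 4 Id genes fell from 435 and 472 FPKM in GM DMSO to 60.4 and 57.9 FPKM at DM 24h with DMSO. With PFI-3 the sum at DM 24h was 133 and 129 FPKM. At 48 h the sum was 79.8 and 79.0 FPKM with DMSO and 125 and 136 FPKM with PFI-3. The make-up of the pool also differed: Id3 held 42.5% of it in both DMSO libraries at 24 h, and 62.7% and 60.9% in the PFI-3 libraries. The share of Id1 was 33.2% and 29.1% with DMSO and 18.8% and 18.2% with PFI-3 at that time. Sums are given as a description, without a test.

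Differentiation with DMSO lowered the Id genes and the inhibitory Smads and slightly raised the receptor genes. Of the 10 members, 8 changed between GM and DM 24h (3 rose and 5 fell), in edgeR's quasi-likelihood test with Benjamini-Hochberg adjustment over all genes and a threshold of 0.05. Over all genes tested, 60.6% changed in this comparison. Between GM and DM 48h, 9 of 10 changed (3 rose and 6 fell), against 73.1% of all genes. The median log2 fold change of the members was -1.64 at 24 h and -1.73 at 48 h, beside 0.02 and 0.03 over all genes. The comparisons with GM at 24 h and at 48 h share the same GM DMSO libraries.

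Id3 (chr4:136143822-136145392), whose protein binds E proteins, was at 238 and 249 CPM in GM DMSO, 22.7 and 21.9 after 24 h and 41.8 and 41.3 after 48 h. The 3 stages did not overlap. It fell 10.9-fold by 24 h (log2 fold change -3.45, SE 0.16, edgeR adjusted p = 4.07e-09), and by 48 h its change was -2.55 (SE 0.15, edgeR adjusted p = 1.15e-08) at 48 h. It was also the 1 member of 10 that changed between 24 h and 48 h with DMSO: it rose by 0.90 on the log2 scale (SE 0.16, edgeR adjusted p = 6.60e-04), where 48.1% of all genes changed.

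Id1 (chr2:152736251-152737410), a close relative of Id3, was at 120 and 111 CPM in GM DMSO, 17.1 and 14.5 at 24 h and 16.1 and 15.2 at 48 h. Id1 fell 7.30-fold by 24 h (log2 fold change -2.87, SE 0.11), and its DM 24h and DM 48h libraries overlapped. Id2 (chr12:25093799-25096092), which also binds the retinoblastoma protein, was at 67.4 and 79.7 CPM in GM DMSO, 17.8 and 19.8 at 24 h and 20.8 and 22.3 at 48 h, a fall of 3.91-fold by 24 h. Id4 was barely detected, with at most 16 counts in any library: 8 and 9 counts in GM DMSO, 1 and 4 after 24 h and 1 and 1 after 48 h. Its change passed at 48 h (edgeR adjusted p = 0.00991) and not at 24 h (0.0582). The call at 48 h was lost with DESeq2 (0.0550) and without either DM 48h DMSO library (0.0518 and 0.0525). At 24 h the change was called with limma on log2(FPKM + 1) (0.0236) and log2(FPKM + 0.1) (0.0334), and without DM 24h DMSO B (0.0431), DM 48h PFI-3 A (0.0376) or DM 48h PFI-3 B (0.0383). No fold is given at these counts.

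Smad6 (chr9:63953076-64022085) and Smad7 encode the inhibitory Smads, which act at the receptor and compete with the other Smads. Smad6 was at 27.5 and 27.8 CPM in GM DMSO, 8.48 and 9.60 at 24 h and 8.21 and 9.00 at 48 h, a fall of 3.05-fold by 24 h. Smad7 differed between the GM DMSO replicates, at 115 and 63.9 CPM, but both lay above the later DMSO libraries, which held 13.7 to 17.2 CPM. Smad7 fell 5.66-fold by 24 h (log2 fold change -2.50, SE 0.23, edgeR adjusted p = 1.84e-06).

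The upstream members moved less. Bmp4, which encodes a secreted ligand, varied between 8.78 and 16.8 CPM in the GM DMSO pair and held 10.3 to 13.9 CPM in the DM DMSO libraries. Its changes did not pass at 24 h (0.07, SE 0.25) or at 48 h (-0.18, SE 0.26). Left out in turn, the 2 GM DMSO libraries turned these values: without replicate B the 24 h change was 0.62 (edgeR adjusted p = 0.0299), and without replicate A the 48 h change was -0.56 (0.0254). Bmpr1a, the type I receptor, rose from 122 and 123 CPM to 161 and 146 at 24 h and 158 and 159 at 48 h. Bmpr2, the type II receptor, rose from 125 in each GM DMSO library to 177 and 169 at 24 h and 183 in each library at 48 h, by 0.47 and 0.55 on the log2 scale. Bmp1, which despite its name is a metalloprotease that processes procollagens and the antagonist chordin, rose by 0.31 (SE 0.12, edgeR adjusted p = 0.0369) and 0.29 (0.0434). Each of the Bmp1 calls was lost in 9 of the 12 fits that left out 1 library, with adjusted p of 0.0515 to 0.189 at 24 h and 0.0576 to 0.223 at 48 h. Of these 12 fits, those without GM DMSO A or either GM PFI-3 library kept them. The 48 h call was also lost in 3 of 9 alternative fits (adjusted p up to 0.0551).

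In proliferating cells PFI-3 changed 1 of the 10 members, beside 11.6% of all genes (5.46% higher and 6.15% lower). That member was Smad6, which was at 38.6 and 35.1 CPM with PFI-3 against 27.5 and 27.8 with DMSO. The PFI-3 pair lay above the DMSO pair, by 0.41 on the log2 scale (SE 0.11, edgeR adjusted p = 0.0316), or 1.33-fold. The call was lost with DESeq2 (adjusted p = 0.119) and when the 4 GM libraries were fitted alone (0.288), a fit in which 0.303% of all genes were called. It was also lost without GM DMSO A (0.0709), GM PFI-3 A (0.107), either DM 24h PFI-3 library (0.0520 and 0.0519) or either DM 48h DMSO library (0.0520 and 0.0519).

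The Id genes did not pass the test in GM. Id1 was at 122 and 143 CPM with PFI-3 against 120 and 111 with DMSO (log2 fold change 0.20, SE 0.09, edgeR adjusted p = 0.168), and without GM PFI-3 A it was called (0.31, adjusted p = 0.0465). The PFI-3 replicates disagreed for Id2 (54.3 and 96.5 CPM) and Id3 (168 and 251 CPM), and both ranges overlapped those of DMSO. Without GM PFI-3 B, Id3 was lower with PFI-3 (-0.53, edgeR adjusted p = 0.00126) and so was Id2 (-0.44, 0.0428). Smad7 depended in the same way on the GM DMSO pair, with a change of 0.43 (edgeR adjusted p = 0.0364) without replicate A and -0.42 (0.0152) without replicate B. Bmp1 was called without GM PFI-3 A (-0.44, 0.0173). For these 5 genes the single library left in a group decided the sign or the call, so no direction is given for them in GM.

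At 24 h of differentiation PFI-3 raised 2 of the 10 members, Id3 and Smad6, and lowered none. Over all genes 23.6% changed, 12.2% higher and 11.4% lower. The median log2 fold change of the members was 0.10, and that of all genes 0.00.

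Id3 showed the largest change of the members that passed. It was at 71.3 and 67.4 CPM with PFI-3 against 22.7 and 21.9 with DMSO, 3.11-fold higher (log2 fold change 1.64, SE 0.16, edgeR adjusted p = 2.19e-05). Both PFI-3 libraries lay far above both DMSO libraries, and all 4 lay below the GM range. As a share of the GM DMSO mean, Id3 was at 28.5% with PFI-3 and 9.16% with DMSO. It was called in 10 of 10 alternative fits and in all 12 fits that left out 1 library.

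Smad6 was at 13.2 and 11.9 CPM with PFI-3 against 8.48 and 9.60 with DMSO at 24 h, without overlap (log2 fold change 0.47, SE 0.13, edgeR adjusted p = 0.0242). This is 45.3% of the GM DMSO mean against 32.7%. The call was lost with DESeq2 (adjusted p = 0.109) and without DM 24h DMSO A (0.167), DM 24h DMSO B (0.0579), DM 24h PFI-3 A (0.163) or DM 24h PFI-3 B (0.0585).

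Id2 and Id1 lay at the threshold at 24 h. Id2 was at 28.6 and 31.6 CPM with PFI-3 against 17.8 and 19.8 with DMSO, a ratio of 1.60 (log2 fold change 0.68, SE 0.23, edgeR adjusted p = 0.0523). Id1 was at 20.7 and 19.4 CPM against 17.1 and 14.5, a ratio of 1.27 (0.35, SE 0.12, edgeR adjusted p = 0.0503). Neither pair overlapped. The GM pairs are more variable than the DM pairs and enter the shared estimate of the spread. The part of this in the results for Id2 and Id1 was not tested. In a fit to the 8 DM libraries alone, added after seeing the data, Id2 (adjusted p = 1.17e-07) and Id1 (0.00617) were both called, among 44.3% of all genes. With the replicate letter as a block over all 12 libraries Id2 was called (adjusted p = 0.0118) and Id1 was not (0.0599), and with DESeq2 likewise (0.0164 and 0.137). Of 10 alternative fits, 8 called Id2 and 6 called Id1. Each was called in 4 of the 12 fits that left out 1 library, those without a GM library, and in none of the others. Without 1 of the DM 24h libraries the log2 fold change was 0.603 to 0.766 for Id2 and 0.234 to 0.472 for Id1.

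The other members did not pass the test at 24 h. Smad7 was at 15.2 and 16.2 CPM with PFI-3 and 14.8 and 16.6 with DMSO, with the treatments overlapping. Log2 fold changes were 0.20 for Bmp4 (SE 0.25), -0.01 for Bmp1 (SE 0.12), -0.03 for Bmpr1a (SE 0.07) and -0.08 for Bmpr2 (SE 0.06). Id4 had 1 to 4 counts per library.

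**Figure D2:**
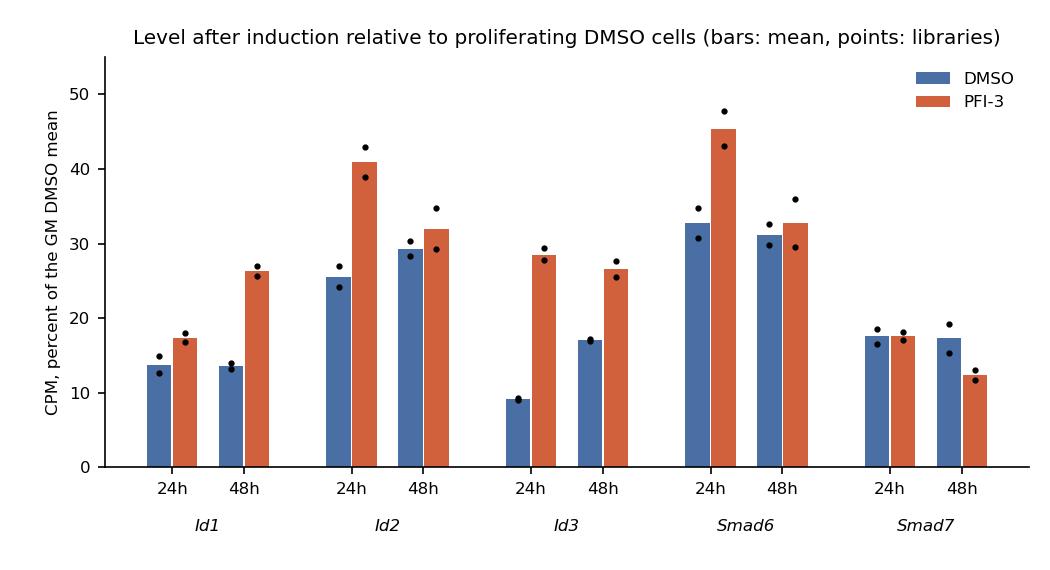
Level of Id1, Id2, Id3, Smad6 and Smad7 at 24 h and 48 h of differentiation as a percentage of the mean CPM in GM DMSO (vertical axis, linear from 0); bars are group means, points libraries, blue DMSO and orange PFI-3. Id3 stood at 9.16% with DMSO and 28.5% with PFI-3 at 24 h, and Id1 at 13.6% and 26.3% at 48 h; Smad7 was at 17.6% in both groups at 24 h.

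At 48 h PFI-3 raised Id1 and Id3 and lowered Bmpr1a, 3 of the 10 members, where 27.4% of all genes changed (13.4% higher and 14.0% lower). Id1 was at 29.5 and 31.1 CPM with PFI-3 against 16.1 and 15.2 with DMSO, 1.93-fold higher (log2 fold change 0.95, SE 0.11, edgeR adjusted p = 7.38e-05). The pairs lay apart, and the call held in 10 of 10 alternative fits and 12 of 12 fits without 1 library. Id1 stood at 26.3% of the GM DMSO mean with PFI-3 and 13.6% with DMSO. Id3 was at 62.1 and 67.2 CPM against 41.8 and 41.3, 1.56-fold higher (0.64, SE 0.15, edgeR adjusted p = 0.00746). Its call was lost without DM 48h DMSO B (0.0558) or DM 48h PFI-3 B (0.0603).

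Bmpr1a was at 133 and 138 CPM with PFI-3 against 158 and 159 with DMSO, a decrease of 1.17-fold (log2 fold change -0.22, SE 0.07, edgeR adjusted p = 0.0302). The pairs did not overlap, but the call was lost with DESeq2 (0.0541), with limma on log2(FPKM + 1) (0.182) and without DM 48h DMSO A (0.112), DM 48h DMSO B (0.127), DM 48h PFI-3 A (0.176) or DM 48h PFI-3 B (0.0805). Id2 and Smad6, whose treatment pairs were apart at 24 h, overlapped at 48 h: Id2 was at 21.5 and 25.6 CPM with PFI-3 against 20.8 and 22.3, and Smad6 at 8.15 and 9.92 against 8.21 and 9.00. Smad7 was at 11.6 and 10.5 CPM against 17.2 and 13.7, without overlap (-0.48, SE 0.27, edgeR adjusted p = 0.215). Bmpr2 was at 163 and 170 CPM against 183 in each DMSO library (-0.14, SE 0.06, edgeR adjusted p = 0.139). In the fit to the 8 DM libraries alone, where 46.6% of all genes were called, Smad7 (adjusted p = 0.00157) and Bmpr2 (0.0139) were called as well. Smad7 was also called without either GM DMSO library (0.0158 and 0.0155). Bmp4 (0.25, SE 0.26) and Bmp1 (-0.08, SE 0.12) did not pass. Id4 had 1 count in 3 of the 4 libraries and 6 in the other.

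**Figure D3:**
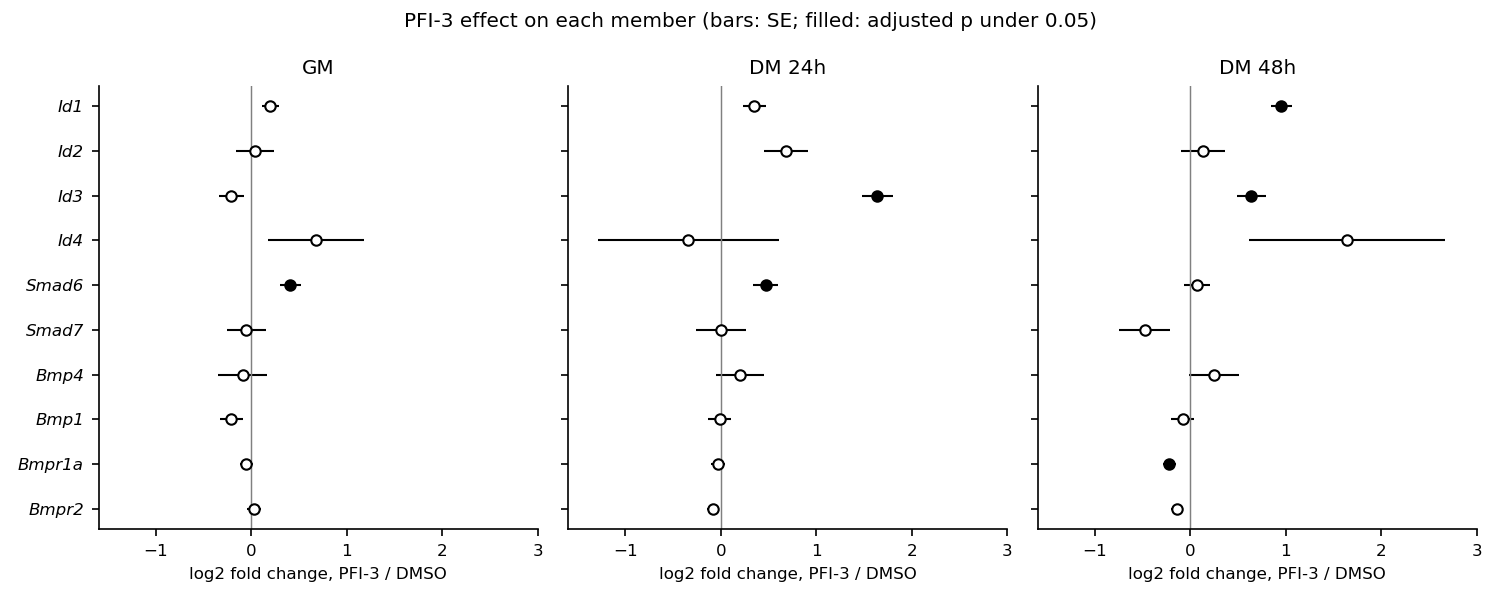
Log2 fold change of PFI-3 against DMSO (horizontal axis) for each member (rows) in GM, DM 24h and DM 48h (panels); points are edgeR estimates from 2 libraries per group, bars 1 SE, and filled points have an adjusted p under 0.05. Id3 stands out at DM 24h (1.64) and Id1 at DM 48h (0.95), and the wide bars of Id4 reflect its low counts. The ligand, protease and receptor genes lie closer to 0, with the receptor gene Bmpr1a called at DM 48h (-0.22).

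The PFI-3 effect was then compared between stages with interaction contrasts, in which 3.37% (DM 24h against GM), 14.5% (DM 48h against GM) and 12.1% (DM 48h against DM 24h) of all genes were called. Exposure to PFI-3 lasted 12 h in GM, longer at DM 24h and longest at DM 48h. Stage and length of exposure therefore cannot be told apart in these contrasts. For Id3 the effect was larger at DM 24h than in GM by 1.85 (SE 0.21, edgeR adjusted p = 0.00110) and larger at DM 48h than in GM by 0.85 (SE 0.20, edgeR adjusted p = 0.0145). It was smaller at 48 h than at 24 h (log2 difference -1.0, SE 0.22, edgeR adjusted p = 0.0105). For Id1 the effect was larger at DM 48h than in GM by 0.75 (SE 0.14, edgeR adjusted p = 0.00468) and larger than at DM 24h by 0.61 (SE 0.16, edgeR adjusted p = 0.0315). The difference was thus larger at 24 h for Id3 and at 48 h for Id1. The effect on Smad6 at 48 h was below that at 24 h by 0.40 without passing the test (-0.40, SE 0.19, edgeR adjusted p = 0.220), and for Id2 the same difference was -0.55 (SE 0.33, 0.319).

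With 1 library left out, some of these calls were lost and others were gained. The Id1 difference between 48 h and 24 h was 0.48 to 0.65 in the 7 of 12 fits that lost its call (adjusted p of 0.0706 to 0.150), those without DM 24h DMSO A, DM 24h PFI-3 A, DM 24h PFI-3 B or any of the 4 DM 48h libraries. The Id3 difference between DM 48h and GM was 0.86 without DM 48h DMSO A (0.0562), 0.84 without DM 48h DMSO B (0.0614) and 0.79 without DM 48h PFI-3 B (0.0660), and its call was also lost in the fit to the libraries compared (0.83, 0.0604). The Id3 difference between 48 h and 24 h was -0.94 without DM 48h PFI-3 A (0.0522). Without GM PFI-3 B, the Id2 difference was called for DM 24h against GM (1.12, 0.00338) and DM 48h against GM (0.56, 0.0464). Without either GM PFI-3 library it was called for DM 48h against DM 24h (0.0479 and 0.0485), at the unchanged value of -0.55. The Smad7 difference between DM 48h and GM was called without GM DMSO A (-0.91, 0.00391).

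The summed CPM of the 8 skeletal muscle markers was lower with PFI-3 at all 3 stages. In GM it was 557 to 687 with PFI-3 and 972 to 999 with DMSO. There 3 of the 8 were called lower, beside 6.15% of all genes, and the median log2 fold change of the 8 was -0.22. Myog, 1 of the 8, was at 0.646 CPM with PFI-3 and 0.263 with DMSO in GM (log2 fold change 1.25, not called). At DM 24h, where Id3 was 3.11-fold higher, the summed CPM of the 8 markers was 2205 to 2224 with PFI-3 and 3708 to 3721 with DMSO. At DM 48h, where Id1 was 1.93-fold higher, it was 6799 to 6835 against 9552 to 9555. The part of the lower muscle gene level in the Id differences was not tested. Among the helix-loop-helix partners of Id proteins, 2 of 7 were lower and none higher at each DM stage, and none was called in GM, by edgeR. Lower genes made up 11.4% of all genes at 24 h and 14.0% at 48 h. The myogenin gene, Myog, stood at 406 ± 8.07 CPM with PFI-3 and 842 ± 6.68 with DMSO at 24 h (SD, n = 2; log2 fold change -1.05), and at 1196 ± 24.4 against 1833 ± 16.6 at 48 h (-0.62). Tcf3, which encodes the E proteins E12 and E47, was lower at 24 h (-0.21, edgeR adjusted p = 0.0187), a call lost without any 1 of the 4 DM 24h libraries (0.0705 to 0.139). Myf6, a late muscle regulator, was lower at 48 h, at 1.02 ± 0.224 against 2.94 ± 0.935 CPM (SD, n = 2; -1.52, edgeR adjusted p = 0.0216), a call lost without DM 48h DMSO B (0.191), DM 48h PFI-3 A (0.0756) or DM 48h PFI-3 B (0.146). The median log2 fold change of the 7 partners was -0.16 at 24 h and -0.15 at 48 h.

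The remaining genes of the BMP pathway were followed in 5 lists. Of 12 other BMP-type ligands, 3 passed the low-count filter. None of them was called at 24 h, while all 3 were lower with PFI-3 at 48 h, beside 14.0% of all genes. Bmp6 was at 3.83 ± 0.433 CPM with PFI-3 and 13.7 ± 0.172 with DMSO (SD, n = 2; log2 fold change -1.84, edgeR adjusted p = 2.96e-04). Gdf5, a ligand of joint development, was at 2.62 ± 0.393 against 6.12 ± 0.436 CPM (-1.22, edgeR adjusted p = 0.0154), and Bmp8a at 0.274 ± 0.0559 against 1.10 ± 0.0622 (-1.97, 0.0158). Without any 1 of the 4 DM 48h libraries the calls of Gdf5 (0.0667 to 0.121) and Bmp8a (0.0600 to 0.102) were lost. Bmp6 at 24 h was called without any 1 of the 4 GM libraries (0.0212 to 0.0340) but not with all 12 (0.0557).

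Antagonists and extracellular modulators moved both ways: 4 of 14 were higher and 1 lower at 24 h, and 5 were higher and 4 lower at 48 h. The shares of all genes were 12.2% higher and 11.4% lower at 24 h, and 13.4% higher and 14.0% lower at 48 h. In GM 1 was higher and 1 lower (5.46% and 6.15% of all genes). Grem1, which encodes gremlin, a secreted BMP antagonist, was at 142 ± 2.65 CPM with PFI-3 against 75.5 ± 0.222 with DMSO at 24 h (SD, n = 2; log2 fold change 0.91) and 63.2 ± 7.61 against 28.4 ± 0.464 at 48 h (1.15). In GM DMSO it was at 411 ± 11.6 CPM, so that like Id3 it declined on differentiation and was higher with PFI-3. Crim1, a transmembrane protein that binds BMPs, was higher by 1.20 at 24 h and 1.28 at 48 h. Fst, which encodes follistatin, a binding protein for activins and some BMPs, went the other way, at 65.3 ± 2.97 CPM against 265 ± 4.39 at 48 h (-2.02), and was lower at 24 h (-1.26) and in GM (-1.07) as well. The GM call of Fst was lost in 1 of 9 alternatives, with adjusted p up to 0.220. Fstl3, a relative of follistatin, was lower at 48 h (-1.11), and at 24 h was not called (-0.50, edgeR adjusted p = 0.110), but was in 3 of 10 alternative fits (adjusted p down to 1.60e-04) and without GM DMSO A (0.0359) or GM DMSO B (0.0334). It was called in GM without GM DMSO B (-0.67, 0.00835). The median over the 14 genes was 0.09 at 24 h and 0.10 at 48 h.

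Of 8 other receptors and co-receptors, 3 were lower with PFI-3 at each DM stage and none higher, where 11.4% (24 h) and 14.0% (48 h) of all genes were lower. Hfe2, which encodes hemojuvelin, a muscle-expressed co-receptor, was at 16.0 ± 0.836 against 38.7 ± 1.17 CPM at 24 h (SD, n = 2; log2 fold change -1.27) and 130 ± 0.691 against 246 ± 2.18 at 48 h (-0.93). Rgma, of the same co-receptor family, was lower by -0.87 at both times. Bmpr1b, a type I receptor, was lower at 24 h (-0.94) and 48 h (-1.05). Its call at 24 h was lost without any 1 of the 4 DM 24h libraries (0.0670 to 0.144), and at 48 h without DM 48h DMSO B (0.117) or DM 48h PFI-3 A (0.168). In GM, Rgma was called without GM DMSO B (0.39, 0.0480) and Bmpr1b without GM PFI-3 B (-1.11, 0.0286).

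Among 13 signalling Smads and their regulators, 2 were higher and 1 lower at 24 h, and 2 higher and 2 lower at 48 h. Over all genes 12.2% were higher and 11.4% lower at 24 h, and 13.4% higher and 14.0% lower at 48 h. Smad9, a BMP-responsive receptor-activated Smad, was at 6.02 ± 0.333 CPM against 3.09 ± 0.00319 at 24 h (SD, n = 2; log2 fold change 0.96, edgeR adjusted p = 0.0103). That call was lost without DM 24h DMSO A (0.0656), DM 24h DMSO B (0.0659) or DM 24h PFI-3 B (0.0664). Smurf1, a ubiquitin ligase for Smads and receptors, was higher at 24 h (0.36) and 48 h (0.29); the calls were lost without DM 24h DMSO A (0.0763) or DM 24h PFI-3 A (0.0732), and without DM 48h DMSO A (0.0906), DM 48h DMSO B (0.0928) or DM 48h PFI-3 A (0.121). Smad1, the main BMP-activated Smad, was lower at 48 h (-0.42), a call lost without DM 48h DMSO A (0.0512) or DM 48h PFI-3 A (0.0570). Skil, a repressor of Smad signalling, was lower at 24 h (-0.45) and 48 h (-0.74); without any 1 of the 4 DM 24h libraries the call at 24 h was lost (0.0511 to 0.122), and without GM DMSO B Skil was called in GM (-0.36, 0.00389).

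Among other known BMP targets, 2 of 10 tested were higher and 1 lower at 24 h (12.2% and 11.4% of all genes), and 2 higher and 5 lower at 48 h (13.4% and 14.0%). In GM 1 was higher and 2 lower (5.46% and 6.15% of all genes). Dlx3, a homeobox gene, was at 16.3 ± 0.0273 CPM against 7.67 ± 0.867 at 24 h (SD, n = 2; log2 fold change 1.09) and 8.56 ± 0.146 against 4.36 ± 0.732 at 48 h (0.97), the latter call being lost without DM 48h DMSO B (0.0602). In GM, Dlx3 was called without GM PFI-3 A (0.61, 0.00477). Hey1, a Notch and BMP target, was lower at 24 h (-1.21) and 48 h (-0.53), the latter with an edgeR adjusted p of 0.0443 that rose to between 0.0650 and 0.266 without any 1 of the 8 DM libraries. Junb was lower at 48 h, at 227 ± 6.62 against 417 ± 16.8 CPM (-0.88), and in GM (-0.47, lost in 2 of 9 alternatives, adjusted p up to 0.310). Tcf7 was lower at 48 h (-0.76), and without GM DMSO B was called at 24 h (-0.30, 0.0492). The median over the 10 was -0.09 at 24 h and -0.21 at 48 h.

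Some calls in these lists also depended on the fit. The 48 h calls of Bmp8a, Gdf5, Myog, Myf6 and Hey1 were lost in 1 to 3 of the alternative fits, with adjusted p up to 0.148, 0.109, 0.158, 0.155 and 0.167. The 24 h call of Bmpr1b was lost in 1 (0.0633).

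**Figure D4:**
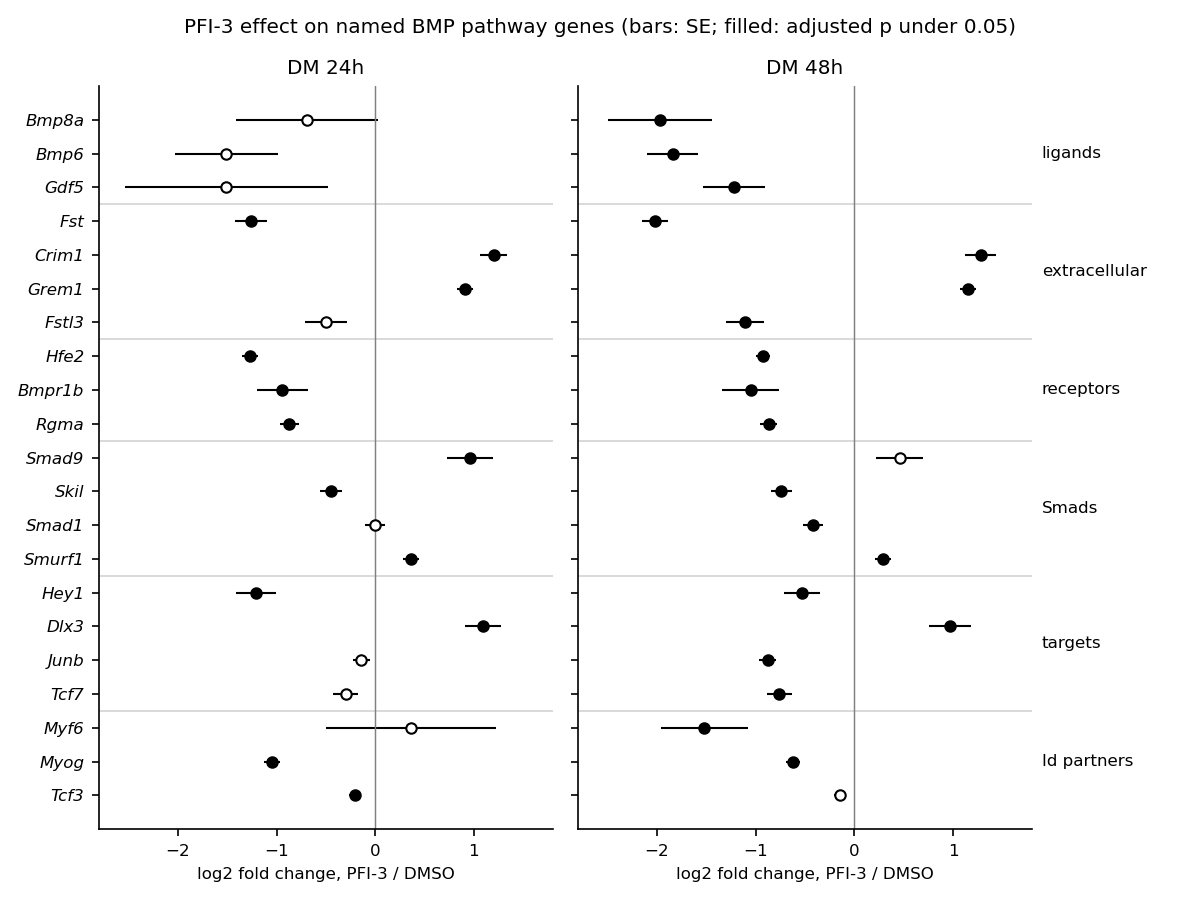
Log2 fold change of PFI-3 against DMSO (horizontal axis) at DM 24h and DM 48h (panels) for the named pathway genes, grouped by role (right); points are edgeR estimates from 2 libraries per group, bars 1 SE, and filled points have an adjusted p under 0.05. Only called genes with the largest change per list are shown, so their directions do not describe whole lists. Bmp6 lies at -1.84 at 48 h, whereas Grem1, Crim1, Smad9 and Dlx3 lie above 0. Over the 8 receptors and co-receptors tested the median was -0.04 at 24 h and -0.31 at 48 h.

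The genes with the profiles nearest to those of 4 members across the 12 libraries were found among the 10367 genes whose mean reached 5 CPM. Nearness was the root mean square difference of centred log2 CPM, so 0 would be an identical shape. For Id3 they were Smad9 (0.374), Ier3 (0.383) and Pparg (0.418), and for Id1 Pparg (0.294), Cyr61 (0.325) and Smad9 (0.350). Smad9 and Pparg thus stood near both, and Pparg, a nuclear receptor best known from fat cells, changed with PFI-3 by 0.57 at 24 h and 0.77 at 48 h on the log2 scale. At the same times Smad9 changed by 0.96 and 0.46, Ier3 by 1.33 and -0.16, and Cyr61 by -0.17 and 0.34. A near profile thus did not always go with a PFI-3 change in the same direction. The nearest to Id2 were Ier5l (0.189), Cited2 (0.192) and Pdk4 (0.199), which like Id2 had larger PFI-3 log2 fold changes at 24 h (0.24, 0.65 and 0.56) than in GM (-0.08, -0.14 and -0.49). At 48 h the values were 0.26, 0.12 and 0.11, beside 0.13 for Id2, so that Ier5l was not lower at 48 h than at 24 h. The nearest to Smad6 were Zfp52 (0.133), Cpne2 (0.142) and Esd (0.172). Most of the shape of all these profiles is the fall from GM to DM, and the libraries are shared, so these values are a description only.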

How the data were processed

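RNA-seq was made from 12 C2C12 libraries, 2 per group. The deposited tables, 1 per library, give an expected count, a gene length and an FPKM value per gene, per the file headers. The authors' sequencing provider did the library preparation, sequencing and downstream processing, per the labels. The submitters' processing notes name HISAT, StringTie, Cufflinks, Bowtie, RSEM, DESeq2 and mm10, without roles or versions. Genes missing from a table were taken as 0. Gene coordinates and start-site windows are RefSeq's (GRCm38.p6), and gene levels were compared in the deposited FPKM.

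Expected counts were rounded and tested with edgeR 4.0.16 (R 4.3.3): TMM scaling, the edgeR low-count filter, 1 quasi-likelihood model with 6 group means over all 12 libraries, two-sided contrasts, Benjamini-Hochberg adjustment over 12545 genes, threshold 0.05. CPM uses TMM-adjusted totals. Alternatives were RLE size factors, DESeq2 1.42.0, no low-count filter, a mean of at least 10 counts, limma 3.58.1 on log2(FPKM + 1) or log2(FPKM + 0.1), only the libraries compared, the replicate letter as a block, and each library left out. The fit was tested on simulated data with 200 changed genes. Limits that rest on a count of 3 or fewer cover counting error only. Groups and letters come from sample titles. Named genes are all members and, per pathway list, up to 4 called genes with the largest change, plus the 3 nearest profiles. Members and lists were chosen with earlier results of these data known.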

Additional observations from a re-analysis of the deposited data

Results flagged for a closer look

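The PFI-3 effect on 2 members differed between stages in edgeR's interaction test. The length of exposure also rose with stage, so stage and exposure cannot be told apart. For Id3 it differed by 1.85 (log2) between DM 24h and GM, by 0.85 between DM 48h and GM, and by -1.0 between DM 48h and DM 24h. For Id1 it differed by 0.75 between DM 48h and GM and by 0.61 between DM 48h and DM 24h. The Id1 difference between DM 48h and DM 24h was called in 5 of 12 fits without 1 library. Groups of 2 are too small for a search for single libraries that stand apart.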

How the results depend on the processing

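The number of members called for PFI-3 changed with the test and with the libraries fitted. In GM it was 1, and 0 with DESeq2 and in the fit to the libraries compared. At DM 24h it was 2, 3 without the low-count filter or with a mean of at least 10 counts, and 4 with limma on either FPKM scale, in the fit to the libraries compared, in that fit with the replicate block, and in the fit to the 8 DM libraries (added after seeing the data). At DM 48h it was 3, and 2 with DESeq2 and with limma on either FPKM scale. It was 5 at DM 48h in the fit to the libraries compared, with and without the replicate block, and in the fit to the 8 DM libraries. The interaction counts became 2 (DM 24h against GM, libraries compared with replicate block), 1 (DM 48h against GM, libraries compared) and 5 (DM 48h against DM 24h, libraries compared, with and without replicate block). Leaving out 1 library gave 0 to 3 members in GM, 1 to 4 at each DM stage, and 1 to 2, 1 to 3 and 0 to 3 for the interactions in the same order. Counts of members for DMSO stage changes stayed within 1.5 times. Over all genes, the fit to the GM libraries alone called 38 genes in place of 1456, the fits to the libraries compared 5603 in place of 2966 at DM 24h and 5644 in place of 3438 at DM 48h. On the FPKM scale the share of higher genes among those called was 75.3% in GM, 62.0% after 24 h and 65.3% after 48 h, beside 47.0%, 51.7% and 48.9% on counts, while the median over all genes moved by less than 0.1.

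Samples of a stage share only a replicate letter, and the labels do not say what it marks. Same-letter samples deviated together in GM (correlation 0.488 across genes) and not after 24 h (0.018) or 48 h (0.037), so no pairing was assumed. With the replicate block over 12 libraries the counts were 1, 3 and 3, and 1489, 3040 and 3452 over all genes.

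Signs turned in changes that had not passed the test. On the log2 scale with limma on log2(FPKM + 1) and log2(FPKM + 0.1), PFI-3 changes became 0.095 and 0.101 for Smad7, 0.043 and 0.058 for Bmp4 and 0.042 and 0.044 for Bmpr1a in GM, 0.037 (both) for Bmp1 and 0.017 (both) for Bmpr1a at DM 24h, and 0.004 (both) for Bmp1 at DM 48h. Smad7 in GM was 0.011 in the fit to the libraries compared with replicate block. With 1 library left out the ranges were -0.439 to 0.391 for Id2, -0.530 to 0.047 for Id3, -0.415 to 0.428 for Smad7, -0.474 to 0.456 for Bmp4, -0.029 to 0.083 for Bmpr2 (PFI-3 in GM), and -0.979 to 0.870 for Id4, -0.064 to 0.049 for Bmp1, -0.099 to 0.044 for Bmpr1a (PFI-3 at DM 24h), and -0.008 to 0.247 for Id2, -0.052 to 2.391 for Id4, -0.079 to 0.204 for Smad6 (PFI-3 at DM 48h), and -0.316 to 0.617 for Bmp4 (DM 24h vs GM with DMSO), and -0.560 to 0.368 for Bmp4 (DM 48h vs GM with DMSO). The cause of these changes was not tested beyond the libraries each fit uses. Depth limits Id4, which never exceeded 16 counts.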

Other observations

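Atoh8, a helix-loop-helix gene and known BMP target chosen after its values were seen, resembled Id3 in part. Like Id3, it was highest in GM and was higher with PFI-3 than with DMSO at both DM stages. Unlike Id3, which rose from 24 h to 48 h with DMSO (log2 fold change 0.90), it did not rise there. Nor did its PFI-3 change drop as that of Id3 did (1.64 at 24 h and 0.64 at 48 h). It fell from 67.5 ± 0.148 CPM in GM DMSO to 27.2 ± 2.42 at DM 24h with DMSO, and stood at 44.0 ± 0.664 with PFI-3 at that time (SD, n = 2; log2 fold change 0.70, edgeR adjusted p = 0.00600). At 48 h it was at 37.8 ± 0.752 CPM with PFI-3 and 24.8 ± 1.22 with DMSO (0.61, edgeR adjusted p = 0.0113). The 24 h call was lost without DM 24h DMSO A (0.0676), and the 48 h call without DM 48h DMSO B (0.0888), DM 48h PFI-3 A (0.0680) or DM 48h PFI-3 B (0.0507). Without GM PFI-3 B it was lower with PFI-3 in GM (-0.43, 0.0127).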
